A study of Arabidopsis lyrata with 3 samples.

Results

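Satellite windows are places of intermediate SEPALLATA3 (SEP3) ChIP-seq signal that lie close to a strong SEP3 site in the genome of Arabidopsis thaliana. They were chosen by score and position in the authors' deposited A. thaliana window list. A member has a score of 2 to under 5, and its summit lies within 5000 bp of the summit of a window of score 5 or more, called a strong window here. Of the 14707 windows of the list, 366 met the rule. They were set against the 2381 other windows of score 2 to under 5, which lie farther from any strong summit. The list also held 931 strong windows and 11029 windows of score under 2. Each satellite was assigned to its nearest strong summit.

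SEP3 belongs to the MADS-domain family and is known for its part in floral organ identity. MADS-domain proteins bind DNA as dimers at short A/T-rich elements called CArG boxes, and SEP3 is known to join further floral MADS-domain proteins into complexes of higher order that can hold several DNA sites at once by looping the DNA between them. The question addressed here is how often a strong SEP3 site had weaker sites in its neighbourhood. In ChIP-seq, chromatin is crosslinked and fragmented, the fragments bound by the protein are recovered with an antibody, and stretches with many sequenced fragments are reported as windows. The place of highest signal in a window is its summit.

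The series mapped SEP3 in inflorescences of A. lyrata, with 2 SEP3 ChIP libraries and 1 input DNA library from wild-type plants with floral buds of stage 1 to 10 or 11, and added the A. thaliana list for comparison. A. lyrata plants were kept in the cold for 7 to 10 weeks and bolted at 18 to 22 °C in long days. The cold was a constant 8 °C under a 16 h day and an 8 h night for replicate 1 and the input, and for replicate 2 it was 8 °C in a 12 h day and 4 °C in a 12 h night. The A. thaliana windows were re-analysed by the authors from earlier samples, and no source used here gives the tissue or genotype of those samples. That list has no replicates. Scores are the authors' own, no source used here states how they were calculated, and read depth is unknown. Since score and summit position chose the members, all values are a description with no test, and intervals cover counting error over windows only.

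The limits of the rule cut through a continuous list. Scores fell on steps, and the last step inside the upper limit was 4.81, with 67 windows of which 13 were satellites. The first step outside it was 5, with 64 windows. At the lower limit, 2.18 was the first step inside, with 444 windows of which 52 were satellites. The step just outside was 1.99, with 641 windows. Of the 642 windows of score 1.9 to under 2, 84 lay within 5000 bp of a strong summit. The 5 satellites of largest distance lay 4958, 4964, 4987, 4988 and 5000 bp from the strong summit, and the 5 nearest windows beyond the limit lay at 5028, 5040, 5099, 5101 and 5105 bp. Scores and distances ran on across each limit with no break.

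Satellites made up 13.3% of the windows of score 2 to under 5 (366 of 2747, 95% Wilson interval 12.1 to 14.6%). In the same 5000 bp zone lay 1190 of the 11029 windows of score under 2. The zone made up 6.58% of the sequence outside strong windows and more than 100 bp from their edges. At least 1 satellite lay within 5000 bp of 326 of the 931 strong windows, a share of 35.0% (32.02 to 38.1%). Of the other windows of score 2 to under 5, 33.1% had another window of that score range within 5000 bp (31.3 to 35.1%). For those within 20000 bp of a strong summit the share was 38.8% (35.2 to 42.6%). A share of this size was thus not particular to strong windows. By assignment to the nearest strong summit, 245 strong windows had 1 satellite, 44 had 2, 7 had 3 and 3 had 4, while 632 had none. Most satellites belonged to a single strong site: 329 had 1 strong summit within 5000 bp and 35 had 2. The remaining 2 satellites, with 4 and 5 strong summits in reach, lay in the crowded stretch of chromosome 4 described below.

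Intermediate windows were densest from 500 to 3000 bp from a strong summit, and from 3000 bp outwards their density was close to that between 5000 and 20000 bp. Density was counted per 100 kb of exposed sequence, meaning sequence outside strong windows and more than 100 bp from their edges. The first 500 bp around a strong summit, most of it inside the strong window or within 100 bp of it, had 0.955 windows of score 2 to under 5 per 100 kb (exact Poisson interval 0.116 to 3.45). Listed windows lay at least 100 bp apart and satellites had a median width of 406 bp. Little room was thus left for a satellite summit there, and no conclusion is drawn from the low value. From over 500 to 1000 bp from a strong summit there were 7.96 such windows per 100 kb (68 windows, 6.18 to 10.1). The density was 6.01 from there to 1500 bp, 5.74 to 2000 bp and 5.35 to 3000 bp. It was 2.91 from over 3000 to 4000 bp and 3.33 from there to 5000 bp. The windows beyond the limit had 3.85 per 100 kb up to 7500 bp, 3.21 up to 10000 bp, 3.19 up to 15000 bp and 2.86 up to 20000 bp. The intervals of the outer part of the satellite zone overlapped those of the stretch just outside it. No such profile was made around other listed windows, so whether the excess is particular to strong summits was not tested.

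Split at 3000 bp, a limit chosen after this profile was seen, 264 satellites lay inside and 102 outside. The inner 264 stood at 5.84 per 100 kb (5.16 to 6.59), against 3.22 (2.98 to 3.47) for the 672 other windows between 5000 and 20000 bp, a 1.82-fold difference. The outer 102 stood at 3.12 per 100 kb (2.54 to 3.78), 0.969 times the same value, with overlapping intervals. Farther than 20000 bp from any strong summit there were 1.91 windows per 100 kb (1.82 to 1.999). All satellites together had 4.70 per 100 kb, 1.46-fold the density between 5000 and 20000 bp and 2.46-fold that beyond 20000 bp. The density of intermediate windows was thus lower still far beyond the limit of the rule. The zone beyond 20000 bp made up 75.8% of the exposed sequence. It included stretches with no strong or intermediate window, such as chromosome 4 from 3 to 5 Mb, and their part in the fall was not tested.

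**Figure D1:**
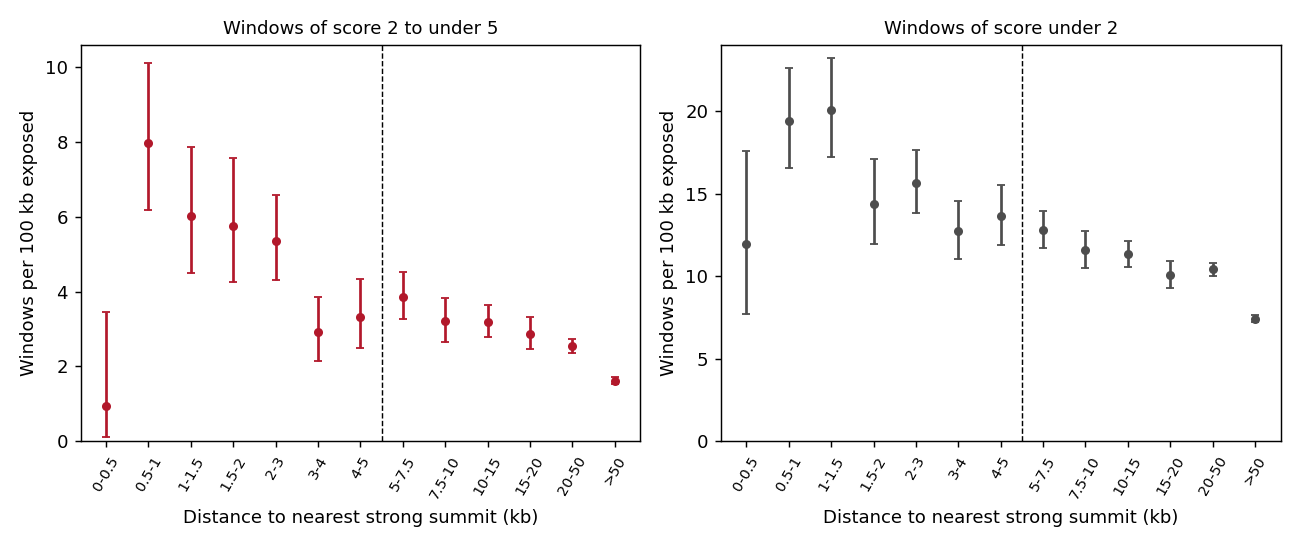
Density of windows (per 100 kb of exposed sequence, y axis) by distance to the nearest strong summit (kb, x axis, bins of unequal size) for windows of score 2 to under 5 (left) and under 2 (right). Points are densities, bars exact Poisson intervals, and the dashed line marks 5 kb; on the left the density is 5.35 to 7.96 from 0.5 to 3 kb and 2.86 to 3.85 from there to 20 kb.

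The first 500 bp from a strong summit held 2 satellites, and only 209 kb of sequence was exposed there; strong windows had a median width of 569 bp. The 2 were a window on chromosome 2 from 16128034 to 16128298 (score 2.18), 457 bp from the strong summit, and a window on chromosome 3 from 2016078 to 2016468 (score 2.55), 461 bp from it. Neighbouring windows of the list were nowhere less than 100 bp apart. The smallest gap between a satellite and its strong window was 103 bp and the median gap was 1539 bp. A gap of at most 200 bp was found for 18 satellites (4.92%), and one of at most 500 bp for 71 (19.4%, 15.7 to 23.8%). The median gap was thus larger than the median width of a satellite, 406 bp. No other listed window stood between the 2 in 247 cases (67.5%, 62.5 to 72.1%), and the highest number of windows between them was 4.

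Windows below the satellite range were also denser near strong sites. Windows of score under 2 stood at 16.8 per 100 kb within 3000 bp of a strong summit (15.6 to 18.0), 13.2 from there to 5000 bp and 11.3 between 5000 and 20000 bp. The inner density was 1.49-fold that between 5000 and 20000 bp for these windows. For windows of score 2 to under 3 it was 1.92-fold, for score 3 to under 4 it was 1.71-fold and for score 4 to under 5 it was 1.59-fold. The last value rests on 32 satellites, and its density of 0.708 per 100 kb has an interval of 0.484 to 1.00. With intervals this wide, no order among the 3 score classes of satellites can be read. The windows under 2 were not uniform. Over the whole 5000 bp, the density against that between 5000 and 20000 bp was 1.19-fold for windows of score under 1.2 and 1.46-fold for those of 1.2 to under 2, and it was also 1.46-fold for the satellites.

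On each of the 5 chromosomes the inner satellites were denser than the windows between 5000 and 20000 bp. Satellites within 3000 bp stood at 6.29 per 100 kb on chromosome 1, 4.59 on chromosome 2, 6.83 on chromosome 3, 5.91 on chromosome 4 and 5.39 on chromosome 5. Between 5000 and 20000 bp the other windows stood at 3.30, 3.20, 3.32, 2.83 and 3.34 per 100 kb in the same order. The inner density was higher on each chromosome, by 1.91-fold, 1.43-fold, 2.06-fold, 2.09-fold and 1.61-fold, and only on chromosome 2 did the 2 intervals overlap. The 3000 bp limit was chosen from the profile of these same windows, so the 5 chromosomes give no independent check of it. Over the whole 5000 bp of the rule the folds were smaller on each chromosome. Against the density between 5000 and 20000 bp they were 1.48, 1.199, 1.72, 1.74 and 1.25 in the same order. The outer satellites, from over 3000 to 5000 bp, went both ways against the same stretch, with 0.890-fold on chromosome 1, 0.871-fold on chromosome 2, 1.26-fold on chromosome 3, 1.24-fold on chromosome 4 and 0.746-fold on chromosome 5, and these intervals overlapped on all 5. The share of strong windows with a satellite ran from 30.3% on chromosome 2 (44 of 145) to 39.1% on chromosome 3 (61 of 156), with overlapping intervals throughout. Chromosome 4 had the highest share of satellites among its windows of score 2 to under 5, 16.2% (12.9 to 20.1%), and chromosome 2 the lowest, 11.5% (8.71 to 15.0%).

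**Figure D2:**
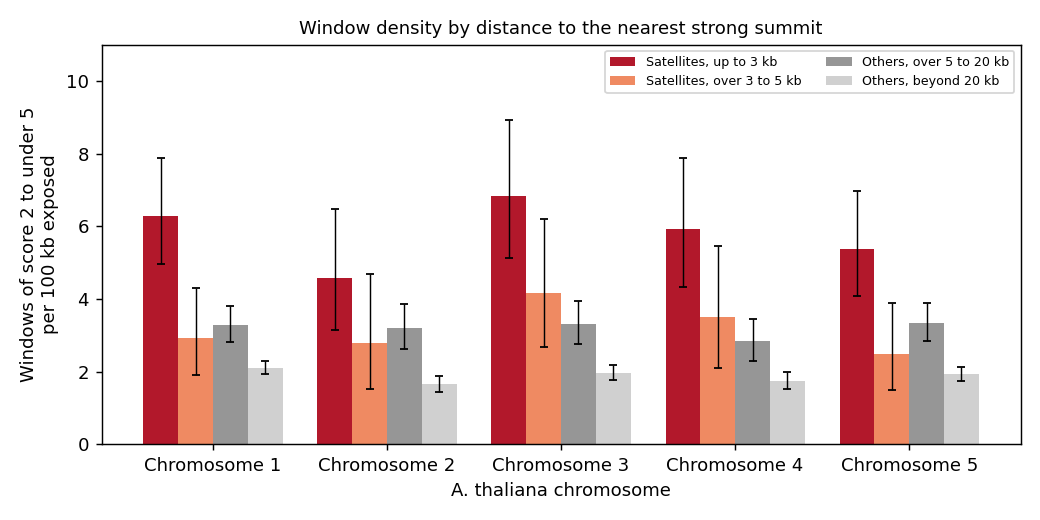
Density of windows of score 2 to under 5 per 100 kb of exposed sequence (y axis) on each chromosome (x axis), with satellites within 3 kb, satellites from over 3 to 5 kb, others up to 20 kb and others beyond 20 kb from left to right. Bars start at 0 and error bars are exact Poisson intervals; the leftmost bar, from 4.59 to 6.83, is the highest on all 5 chromosomes.

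Along the chromosomes, satellites followed the strong windows. In bins of 1 Mb the median number was 2 satellites and the highest 13, reached on chromosome 1 from 28 to 29 Mb, which held 19 strong windows, and on chromosome 4 from 13 to 14 Mb, which held 17. Of 121 bins 32 held no satellite, and 18 of these held at least 1 strong window. Across bins the number of satellites went with that of strong windows (Spearman's rho 0.824) and with that of other windows of score 2 to under 5 (0.609). These values describe bins that share 1 list, and a satellite needs a strong window by definition.

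Satellites lay on either side of the strong site in near equal number, 181 at lower and 185 at higher coordinates. The 54 strong windows with 2 or more assigned satellites had them on both sides in 24 cases. Both sides had a median score of 2.93, and median widths were 411 bp on the lower and 400 bp on the higher side. Median distances were 2180 and 2016 bp in the same order. The summit of a satellite lay at 43.3% of the window's width on the lower side and at 42.4% on the higher side, with quartiles of 34.5 and 54.8% on the lower side and 31.3 and 51.4% on the higher side. Without gene positions, the sides could not be related to the direction of transcription.

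Within the limits of the rule, the score of a satellite went only weakly with that of the strong site beside it. Satellite scores ran from 2.18 to 4.81 with quartiles of 2.36 and 3.49, and their strong neighbours scored from 5 to 33.23 with a median of 7.07. The median satellite reached 41.2% of its neighbour's score, with a range of 7.10 to 96.2%. Across the 366 satellites, Spearman's rho was -0.088 between the 2 scores and 0.103 between score and distance. The median satellite score was 2.74 for the 70 members within 1000 bp and 3.03 for the 54 between 4000 and 5000 bp, with 2.93 in each of the 3 bins between. The rule cut satellite scores to 2 to under 5 and those of their neighbours to 5 or more, which narrows the range over which a relation could be seen. Satellites also share strong neighbours and a stepped score.

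**Figure D3:**
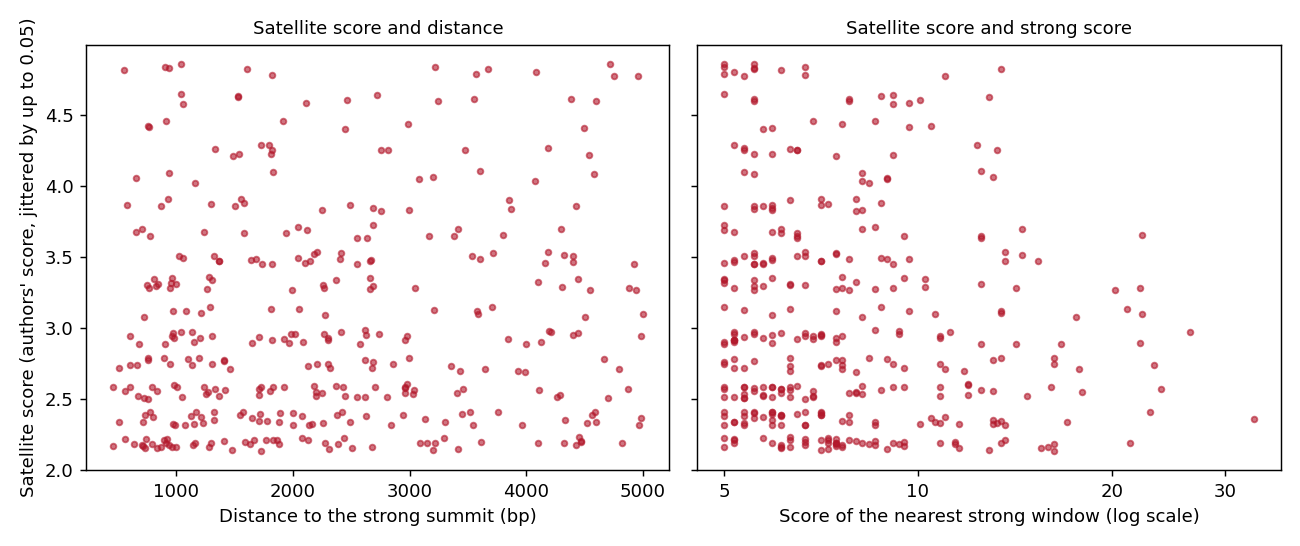
Score of each of the 366 satellites (authors' score, y axis, jittered by up to 0.05) against its distance to the strong summit (bp, left) and against the score of its strong neighbour (log scale, right). Points spread over the whole range of scores from 2.18 to 4.81 at all distances, with Spearman's rho of 0.103 on the left and -0.088 on the right.

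Across 3 classes of strong score the share of windows with a satellite had overlapping intervals. Of the 719 strong windows of score 5 to under 10, 250 had a satellite within 5000 bp (34.8%, 31.4 to 38.3%). The share was 35.0% of 180 windows of score 10 to under 20 (28.4 to 42.2%) and 40.6% of 32 windows of score 20 or more (25.5 to 57.7%). The average was 0.438, 0.433 and 0.469 satellites per strong window in the same order. The class of highest scores is too small to show a difference of this size. Within it, 1 of the first 10 by score and 12 of the 22 at ranks 11 to 32 had a satellite. The intervals of these 2 shares overlap (1.79 to 40.4% and 34.7 to 73.1%), and the split was noticed in the data. Strong sites themselves had another strong summit within 5000 bp in 16.4% of cases (153 of 931).

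The 10 strong windows of highest score had a single satellite among them. It lay on chromosome 2 from 12937957 to 12938224, scored 2.36 and stood 3135 bp from the summit of the strong window from 12940913 to 12941506, which scored 33.23. The highest-scoring window of the list, on chromosome 5 from 17549773 to 17550522 (score 54.87), had no satellite, and neither had the next, on chromosome 5 from 26805293 to 26805995 (score 39.44). Coordinates are on TAIR10, as the name of the list gives the build, and the genes at these places were not analysed here.

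Small groups of satellites gathered at a few sites, and 3 strong windows had 4 each. The first, on chromosome 3 from 5143455 to 5144015, scored 16.29. Its satellites lay 2300, 1731 and 791 bp below and 895 bp above the summit, with scores of 2.74, 2.18, 2.18 and 2.74. All 4 had scores in the lowest part of the range, far below the central window. The second, on chromosome 3 from 8184716 to 8185133, scored 7.82. Its satellites stood 2959 and 1769 bp below and 1995 and 2403 bp above the summit, with scores of 2.55, 2.18, 3.31 and 3.49. The third, on chromosome 1 from 26796138 to 26796753, was among the weakest strong windows with a score of 5. Its satellites stood 2120 and 685 bp below and 2686 and 3292 bp above the summit, with 3.68, 2.93, 2.74 and 2.18 as their scores. Here the gap in score between the strong window and its best satellite was far smaller than at the first site.

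The other 7 of the 10 strong windows with the most satellites had 3 each. The window on chromosome 4 from 10394733 to 10395285 (score 12.53) had satellites of 4.06, 3.68 and 3.68 at 3607 bp below and 2633 and 3170 bp above its summit. On chromosome 3 the window from 22144613 to 22145229, with a score of 9.14, had all its satellites below the summit, at 4539, 2719 and 2207 bp, with scores of 4.25, 4.62 and 2.74. One-sided groups were also found on chromosome 5 above the window from 5897889 to 5898401, with scores of 3.87, 2.36 and 2.93, and on chromosome 1 below the window from 28376860 to 28377449, with scores of 2.55, 3.12 and 2.36. The 3 windows left, on chromosomes 2, 1 and 4, scored 7.26, 5.94 and 5.19 and had satellites on both sides. Among these 10 sites the arrangement thus ran from one-sided to balanced.

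**Figure D4:**
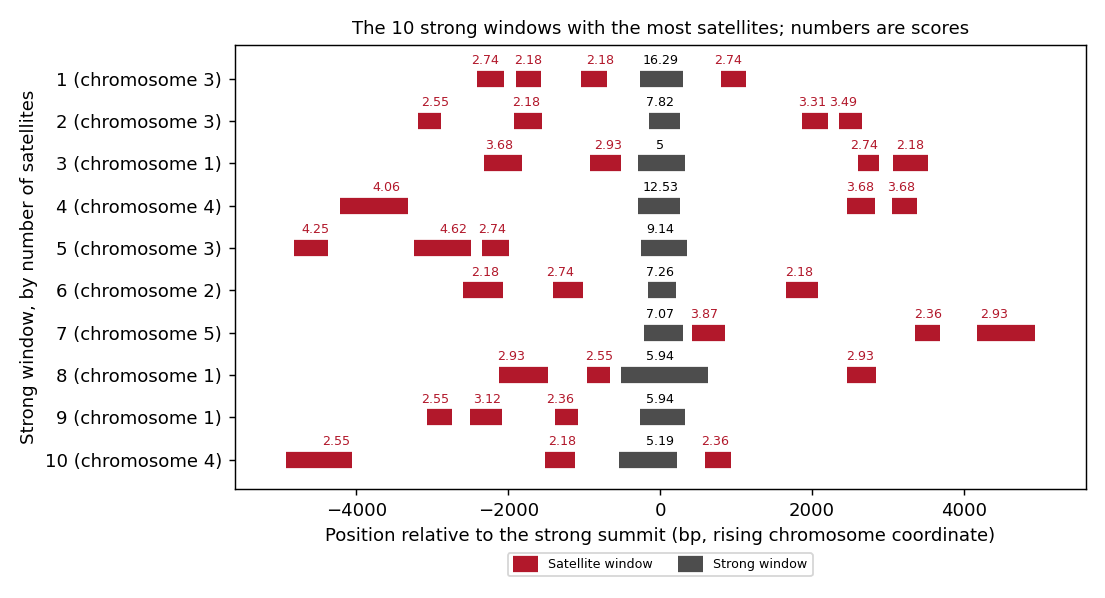
The 10 strong windows with the most assigned satellites, one per row in falling number of satellites, drawn to scale along the chromosome (bp from the strong summit, x axis). Satellite windows are red and strong windows grey, the number above each is its score, and other listed windows are not drawn; the first 3 rows have 4 satellites and the rest 3.

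When strong windows and satellites with summits within 5000 bp of the next were joined, they formed 291 loci with at least 1 satellite. Of these, 210 held 1 strong window and 1 satellite, 37 held 2 or more strong windows, and 11 held 5 or more windows. The median locus spanned 2553 bp between its outer summits and the longest 15711 bp. The most windows in a locus was 7, found at 3 loci. On chromosome 4 from 13015138 to 13023958, 5 strong windows with scores of 21, 5.56, 8.57, 7.26 and 14.22 followed each other, with satellites of score 2.18 in the second and the third space between them. These are the satellites with 4 and 5 strong summits in reach. On chromosome 1 from 28366571 to 28379377, strong windows of 13.66, 5.94 and 5.19 stood with 4 satellites of 2.36, 2.55, 3.12 and 2.36 between the first and the next of them. The longest locus, on chromosome 3 from 4116428 to 4132583, had strong windows of 9.70, 5.38 and 5.19 and satellites of 4.43, 3.49, 2.36 and 3.49.

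The 10 satellites of highest score all had 4.81, the last step below the limit, and were taken from 13 tied windows in order of distance. The nearest to its strong summit was on chromosome 1 from 4081830 to 4082212, at 552 bp. The next were on chromosome 2 from 19650684 to 19651177 at 906 bp and from 18821735 to 18822048 at 939 bp, and on chromosome 4 from 9252317 to 9252783 at 1045 bp. The remaining 6 lay on chromosomes 1, 2 and 3 at 1603 to 4081 bp. Satellites just short of the strong class were thus found both next to a strong window and several kilobases away. These windows would count as strong sites, not as satellites, under a slightly lower limit.

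In width, score and summit position satellites were close to the other windows of score 2 to under 5. The median width was 406 bp in satellites and 405 bp in the others, with quartiles of 343 and 503 bp in satellites and 333 and 498 bp in the others. The median score was 2.93 in satellites and 2.74 in the others, which is 1 step of the score. The 672 others within 20000 bp of a strong summit had the same median as the satellites, 2.93. Scores of 4 to under 5 made up 14.2% of satellites (11.0 to 18.2%) and 14.2% of the others (12.8 to 15.6%). The summit lay at a median of 43.1% of the window's width in satellites and 42.0% in the others. Over the 5 chromosomes the difference in median width had an SD of 18.3 bp and that in median score an SD of 0.134.

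Width rose with score in both classes, with Spearman's rho of 0.356 in satellites and 0.454 in the others, so widths were also compared within narrow ranges of score. At scores under 2.3 the median was 348.5 bp in 52 satellites and 326 bp in 393 others, a difference of 22.5 bp. At 2.5 to under 2.7 it was 367 bp in both. At 3.4 to under 3.8 it was 413.5 bp in satellites and 454 bp in the others, a difference of -40.5 bp. The remaining 5 ranges differed by -25 to 5 bp. The quartiles of satellites and others overlapped in all 8 ranges, and the difference was 0 or positive in the 4 ranges under a score of 3, negative in the next 3 and positive in the last.

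**Figure D5:**
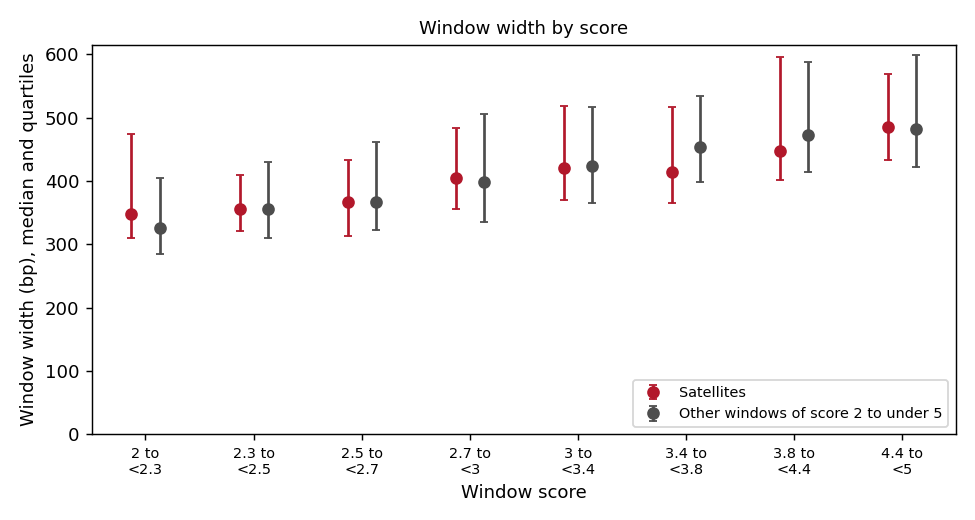
Median window width (bp, y axis) with quartiles (bars) by range of score (x axis) for satellites (red, left of each pair) and the other windows of score 2 to under 5 (grey). The medians lie between 348.5 and 485 bp in satellites and between 326 and 482 bp in the others, and the quartiles overlap in each range.

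Satellites had further company of their own kind about as often as other windows near strong sites. Another window of score 2 to under 5 lay within 5000 bp of 37.4% of satellites (32.6 to 42.5%) and of 33.1% of all others (31.3 to 35.1%). Among the others within 20000 bp of a strong summit this share was 38.8% (35.2 to 42.6%), and beyond 20000 bp it was 30.9% (28.7 to 33.1%). A window of score under 2 lay within 5000 bp of 74.9% of satellites and 73.2% of the others. The strong neighbours of satellites were not marked by their scores either: over satellites the quartiles of the neighbour's score were 5.75 and 9.52, and those over all 931 strong windows were the same.

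The rule was also applied to the 2 A. lyrata libraries at matched ranks, with the 931 windows of highest score taken as strong and the next 2747 as intermediate. These limits fell at scores of 5.77 and 3.53 in replicate 1 and 3.88 and 2.23 in replicate 2, and the scales of the lists are not known to be shared. Satellites numbered 186 in replicate 1 (6.77% of intermediate windows) and 206 in replicate 2 (7.499%). At the scores of the A. thaliana rule, 2 and 5, they numbered 1801 in replicate 1 (8.31%) and 191 in replicate 2 (4.23%), so the order of the libraries depends on how the limits are set. All these shares also depend on how much of the exposed sequence lay within 5000 bp of a strong summit. They are thus not compared with the 13.3% of A. thaliana. Over the whole 5000 bp of the rule the density of intermediate windows was 1.46-fold that between 5000 and 20000 bp in A. thaliana. At matched ranks it was 1.42-fold in A. lyrata replicate 1 and 1.49-fold in A. lyrata replicate 2. At scores of 2 and 5 it was 1.19-fold and 1.49-fold in the same order. The 3000 bp limit was chosen from the A. thaliana profile. Within 3000 bp of a strong summit the density at matched ranks was 1.82-fold in A. thaliana, 1.39-fold in A. lyrata replicate 1 and 1.69-fold in A. lyrata replicate 2. From over 3000 to 5000 bp it was 0.969-fold in A. thaliana, 1.45-fold in A. lyrata replicate 1 and 1.23-fold in A. lyrata replicate 2. In A. lyrata replicate 1 that outer stretch held 2.56 intermediate windows per 100 kb (2.05 to 3.15), against 1.77 (1.60 to 1.94) between 5000 and 20000 bp. The excess thus did not end at 3000 bp there. Listed windows were wider in A. lyrata replicate 1, and only 100 bp around strong windows was left out in each list. How window width affects the inner and outer densities was not tested. At matched ranks the median width was 1053 bp in satellites and 1168 bp in other intermediate windows of A. lyrata replicate 1, and 527 bp in satellites and 572 bp in the others of replicate 2. At scores of 2 and 5 it was 816 bp in satellites and 785 bp in the others of replicate 1, and 485 bp in satellites and 562 bp in the others of replicate 2. Satellites were thus narrower by median in both libraries at matched ranks, but not in replicate 1 at these scores. The A. lyrata widths were not compared within narrow ranges of score, as those of A. thaliana were. Genome size and the length of the lists differ between the species, and the cold treatment of A. lyrata cannot be told apart from the library.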

How the data were processed

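SEP3 windows were read from the authors' deposited lists, 1 for A. thaliana and 1 for each of 2 A. lyrata ChIP libraries. Per the file headers each row gives a chromosome, a start, an end, a summit and a score. The score is the authors' deposited value; no source used here gives its formula, the aligner or the peak caller. CASAVA, without a version, is named in the submitters' processing notes for the A. lyrata libraries. The builds, TAIR10 and Araly1, stand in the names of the lists. Positions are 1-based as deposited.

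Distances were taken from summit to summit, and a summit at exactly 5000 bp counts as within. Exposed sequence runs from the first to the last window of a chromosome and leaves out strong windows and 100 bp around them. Shares have 95% Wilson intervals and densities exact Poisson intervals; both cover counting error only, and read depth is unknown. Windows are not replicates, so no p-value was computed. The count of satellites and the exposed sequence within 5000 bp were tested on simulated data. For the assignment of satellites, the test covered only that the assigned window was strong. The other steps were not tested. Python 3.11.15, numpy 2.4.6, pandas 2.3.3, scipy 1.17.1 and matplotlib 3.10.9 were used.

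The members and all measures were chosen with earlier results of these data known. Named windows were the satellites of the 10 strong windows of highest score, the 10 strong windows with the most satellites, the 10 satellites of highest score and 5 windows on either side of each limit; score limits are given as tied steps. The loci of 7 windows and the 2 nearest satellites were named after their values were seen. CArG boxes, sequences and genes of A. thaliana were not analysed here, since no genome or annotation of TAIR10 was used.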

Additional observations from a re-analysis of the deposited data

How the results depend on the processing

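The number of satellites follows the limits of the rule. It was 173 with distances up to 2000 bp, 637 up to 10000 bp, 89 with strong windows of score 10 or more, 151 with satellite scores of 3 or more and 650 with 1.5 or more. Under those settings the share of strong windows with a satellite was 17.6% at 2000 bp, 54.2% at 10000 bp, 15.5% from score 3 and 53.8% from score 1.5. The share of intermediate windows that are satellites was 6.30% at 2000 bp, 23.2% at 10000 bp and 3.24% with strong scores of 10 or more. The share of satellites with a close gap was 4.92% for a gap of up to 200 bp and 35.5% for up to 1000 bp. All of these move by construction. The median score difference between satellites and other windows was 0 with distances up to 2000 bp and 0 against others within 20000 bp, in place of 0.19; the cause was not tested. Leaving out each chromosome in turn gave 0.19 each time for that difference, -6 to 3 bp for the width difference and 1.76 to 1.88 for the density within 3000 bp over that from 5000 to 20000 bp. That density ratio was 1.82 in A. thaliana, 1.39 in A. lyrata replicate 1 and 1.69 in A. lyrata replicate 2. Only replicate 1 differed from A. thaliana by more than the SD over A. thaliana chromosomes, 0.286. That SD is a spread among chromosomes, not the error of a difference between lists, and the cause of the difference was not tested. Over the whole 5000 bp and at matched ranks, the ratio was 1.46 in A. thaliana, 1.42 in replicate 1 and 1.49 in replicate 2. In A. thaliana the ratio within 3000 bp was 1.55 with no positions left out and 1.60 with strong scores of 10 or more. In all, 32 of 49 settings moved a value by less than its interval, its SD over chromosomes or, for the number of satellites, 1.5 times. The density ratio with its settings and the comparison with others within 20000 bp were added after the data were seen. The 4 planned results on CArG boxes and genes, with 12 settings, could not be run. No paired analysis was possible because A. thaliana has a single list with no replicate numbers.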

Other observations

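The share with a satellite was lower in the 10 strongest A. thaliana windows than in those ranked just below them. The intervals overlap, and the split was noticed in the data and not tested. A satellite lay within 5000 bp of 1 of the first 10 (10%, 95% Wilson interval 1.79 to 40.4%) and of 12 of the 22 at ranks 11 to 32 (54.5%, 34.7 to 73.1%). Over the first 100 the share was 30% (21.9 to 39.6%), near that of all strong windows.

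A second library allows a look at recurrence in A. lyrata. Of the replicate 1 satellites at matched ranks, 83 of 186 (44.6%, 37.7 to 51.8%) had a replicate 2 summit of the strong or intermediate class within 200 bp, and of the other intermediate windows 43.3% (41.4 to 45.2%). Of the replicate 2 satellites, 67 of 206 (32.5%, 26.5 to 39.2%) had such a replicate 1 summit, and of the others 46.6% (44.7 to 48.5%). For the others within 20000 bp of a strong summit the share was 44.0% in replicate 1 and 47.8% in replicate 2. The summit lay inside some replicate 1 window for 85.4% of the replicate 2 satellites and 96.9% of the others. It lay inside a strong replicate 1 window for 15.5% of these satellites (11.2 to 21.1%) and 10.6% of the others (9.45 to 11.8%). In the other direction, the summit lay inside some replicate 2 window for 91.4% of the replicate 1 satellites and 93.2% of the others. It lay inside a strong replicate 2 window for 9.14% of these satellites (5.78 to 14.1%) and 7.61% of the others (6.65 to 8.71%). Windows were wider in replicate 1, and the part of window width in these differences was not tested. Both libraries may share the input control, and no such second list was used for A. thaliana.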
